A study of Mus musculus with 22 samples.

Results

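A set of 1143 CpG positions in the mouse genome was methylated at an intermediate level, between 30 and 70%, in each of 12 reduced representation bisulfite sequencing (RRBS) libraries from retinal Müller glia and retinal progenitor cells. The positions were taken from the 489000 autosomal positions that were listed for all 12 libraries with at least 20 reads in each, here called eligible positions, and they made up 0.234% of them. The methylation level is the percentage of reads that carried a methylated cytosine, and each strand of a CpG is a position of its own. The 1143 positions, called members, lay in 1099 distinct CpGs, 44 of which had both strands in the set. Because the members were chosen by these levels, the levels are given as a description and no test is drawn from them.

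All animals were C57BL/6 mice. Müller glia, the main supporting glia of the retina, were sorted by fluorescence from Rlbp1-GFP reporter mice, in which the promoter of a gene for a retinaldehyde-binding protein drives the green marker. The groups were young Müller cells (2 to 3 months), Müller cells of the same age taken 2 days after an injection of NMDA into the vitreous (NMDA, a glutamate receptor agonist that injures retinal neurons), aged Müller cells (1.5 years), and retinal progenitor cells (RPC) of embryonic day 12.5, for which no sort was described. Each group had 3 RRBS libraries, and RNA-seq gave 2 libraries for young, 3 for NMDA, 2 for aged and 3 for RPC cells. Nothing in the labels said whether replicates came from separate animals, so the spread between them may be technical.

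In a diploid cell a CpG can be methylated on both parental chromosomes, on neither, or on 1 of them. Imprinting control regions are the best known case of the last kind. The mark is set in the germ line on the chromosome of 1 parent and is kept in somatic tissue. It limits expression of nearby genes to the copy of 1 parent, which can be the marked or the unmarked one. An intermediate level in bulk DNA can equally come from a mixture of fully methylated and unmethylated cells, and RRBS levels without parental polymorphisms cannot tell these apart.

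Few members fell in the 250 bases upstream of a gene start: of 31365 such windows in the RefSeq table (GRCm38.p6), 18 held a member. Stretches from 3 of the 5 windows with more than 1 member are printed first, 5′ to 3′ on the strand of the gene, with the CpGs of members in capitals. The window of LOC115490388, a long noncoding RNA gene, was chr6:3182866-3183115 on the plus strand, that of 1700017J07Rik, also a long noncoding RNA gene, was chr2:168978019-168978268 on the plus strand, and that of Asprv1, which encodes a skin protease, was chr6:86627924-86628173 on the plus strand.
LOC115490388: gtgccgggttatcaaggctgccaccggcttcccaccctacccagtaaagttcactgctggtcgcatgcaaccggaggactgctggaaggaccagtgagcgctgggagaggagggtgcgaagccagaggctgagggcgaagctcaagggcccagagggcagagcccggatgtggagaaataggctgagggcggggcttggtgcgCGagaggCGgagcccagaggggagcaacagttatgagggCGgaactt
1700017J07Rik: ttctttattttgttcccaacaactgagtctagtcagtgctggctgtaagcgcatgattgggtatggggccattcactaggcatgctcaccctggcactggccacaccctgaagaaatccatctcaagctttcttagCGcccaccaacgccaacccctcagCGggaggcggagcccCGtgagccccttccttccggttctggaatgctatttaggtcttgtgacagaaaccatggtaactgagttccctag
Asprv1: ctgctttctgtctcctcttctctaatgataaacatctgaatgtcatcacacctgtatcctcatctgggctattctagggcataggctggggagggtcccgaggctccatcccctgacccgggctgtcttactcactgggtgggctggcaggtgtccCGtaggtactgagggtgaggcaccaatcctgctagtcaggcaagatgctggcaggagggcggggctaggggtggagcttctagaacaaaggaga
The next stretch, chr11:22972979-22973008 on the minus strand, lies upstream of a second start of Commd1 and inside the span of Zrsr1, and is shown because it holds a member of the only region at a listed imprinted gene; the capitals again mark the member's CpG.
Commd1: aaccagctgagtcacCGgcgtgtttgcgca
The last 2 hold no member and are shown for contrast, with the CpGs that had at least 20 reads in every library in capitals. Rbmxl2 (chr7:107209195-107209444, plus strand) borders 1 of the 2 regions with the most members, and Mcts2 (chr2:152686898-152687147, plus strand) is an imprinted gene.
Rbmxl2: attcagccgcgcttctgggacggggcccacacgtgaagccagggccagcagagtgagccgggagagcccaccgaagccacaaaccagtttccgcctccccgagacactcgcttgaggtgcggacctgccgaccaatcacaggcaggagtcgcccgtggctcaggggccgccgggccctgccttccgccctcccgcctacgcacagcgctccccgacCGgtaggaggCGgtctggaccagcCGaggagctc
Mcts2: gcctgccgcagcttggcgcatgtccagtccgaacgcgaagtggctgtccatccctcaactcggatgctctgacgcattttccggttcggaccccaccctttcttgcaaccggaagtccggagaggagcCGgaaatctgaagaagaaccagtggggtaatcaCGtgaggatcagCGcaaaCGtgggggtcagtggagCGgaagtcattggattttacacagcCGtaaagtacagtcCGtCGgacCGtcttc
At 1700017J07Rik 3 members had mean levels from 45.4 to 53.8%. The non-members there averaged 85.4, 43.1, 88.8 and 14.5% in order along the chromosome. Those at 43.1 and 88.8% lay between members, so some close neighbours were intermediate too and others were not. At LOC115490388 the 3 members averaged 37.7, 54.5 and 52.4%, and a neighbour at 20.4% lay just beside the first of them. The CpG at Asprv1 was a member on both strands, with means of 41.8 and 42.1%. RRBS reads start at CCGG, the site cut by the enzyme MspI, and all 18 windows with a member held CCGG, against 47.7% of all 31365 windows, which include windows with no measured position. The motif TGCCGC, searched on both strands, was in 1 of the 18 windows and in 8.69% of all windows; among the printed stretches it was found in the Mcts2 window.

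Across libraries the members stayed near the middle of the band. The mean over the members ranged from 47.8% in young replicate 1 to 52.1% in NMDA replicate 2. By group it was 49.0 ± 1.15% in young, 51.7 ± 0.54% in NMDA, 49.0 ± 0.66% in aged and 51.1 ± 0.32% in RPC cells (mean ± SD, n = 3). All NMDA and RPC libraries lay above the young and aged ones, by a margin that is small beside the 28.1 points that the median member spanned from its lowest to its highest library. The steadiest member spanned 7.85 points and the least steady 39.6. Within a group the median SD of a member was 5.55 to 6.94 points. Counting alone, at each member's own coverage and a level of 50%, gave a median of 4.18 to 5.14 points.

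Many members sat close to the limits of the band. In 283 of them the lowest library was between 30 and 32%, and in 279 the highest was between 68 and 70%, while 682 further eligible positions stayed within 28 to 72% in every library. In all, 2101 eligible positions were inside the band in 11 of 12 libraries and outside in 1, among them 516 of those 682. The outside library was young replicate 1 for 474 of these, below 30% for 350 and above 70% for 124; the next was RPC replicate 3 with 212, and NMDA replicate 2 was lowest with 63. Leaving out young replicate 1 raised the number of members from 1143 to 1770 and the number of regions, defined below, from 11 to 22. Of the 13301 eligible positions with a mean of 40 to 60%, 1099 (8.26%) were members. Over 106006 positions the difference of young replicates 1 and 2 was 9.86 times the counting variance per position, the largest within a group. The smallest was 3.21, for NMDA replicates 2 and 3, over 91254 positions. This measure rises with coverage, and median coverage was 152 and 151 reads in the first pair and 122 and 65 in the second. Over members the largest was 7.27, for NMDA replicates 1 and 3, with 6.67 for young replicates 1 and 2. The part of coverage in these values was not tested.

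**Figure D1:**
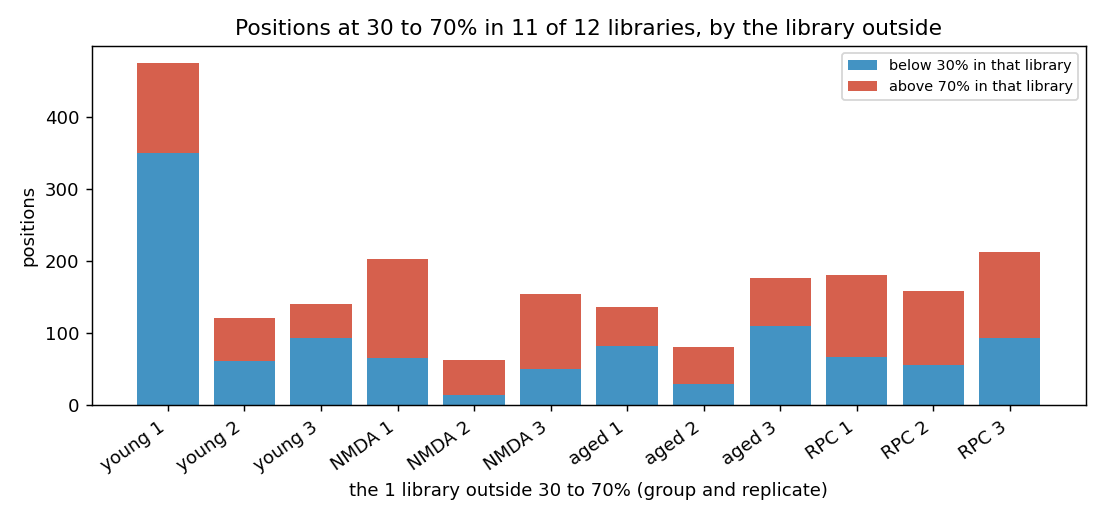
The bars give, for each library (group and replicate on the x axis), the number of positions that were at 30 to 70% in the other 11 libraries and below 30% (blue) or above 70% (red) in that one. Young replicate 1 was the outside library for 474 of the 2101 positions, and NMDA replicate 2 for 63.

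Along the chromosomes the members were mostly scattered. Members of either strand were chained where neighbours lay at most 1000 bp apart, which gave 895 chains. Of these 734 were single positions (64.2% of members), 150 held 2 to 4 members (344 in all), and 11 held at least 5 and are called regions; the regions held 65 members (5.69%), and the largest had 8. By chromosome the share of eligible positions that were members ran from 0.113% on chromosome 3 to 0.303% on chromosome 18.

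A position close to a member was often intermediate itself without being a member. Among eligible positions 1 to 10 bp from a member, which include the other strand of the same CpG, 14.9% were members and 77.3% had a mean of 30 to 70%. At 101 to 500 bp these shares were 2.46 and 32.3%, and at 501 to 1000 bp they were 0.237 and 11.3%, compared with 0.234 and 6.03% over all eligible positions. Reads of 1 fragment cover neighbouring CpGs, so close positions share molecules and are not independent. Around the 734 lone members, 687 had another eligible CpG within 100 bp. Of the 3113 such neighbouring positions, 42.6% had a mean of 30 to 70%, 17.1% were below 20% and 17.2% above 80%. For 483 lone members at least 1 of these neighbours was intermediate, for 36 all were below 20% and for 59 all were above 80%. A lone member lay within 500 bp of both a position below 20% and a position above 80% in 56 cases.

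**Figure D2:**
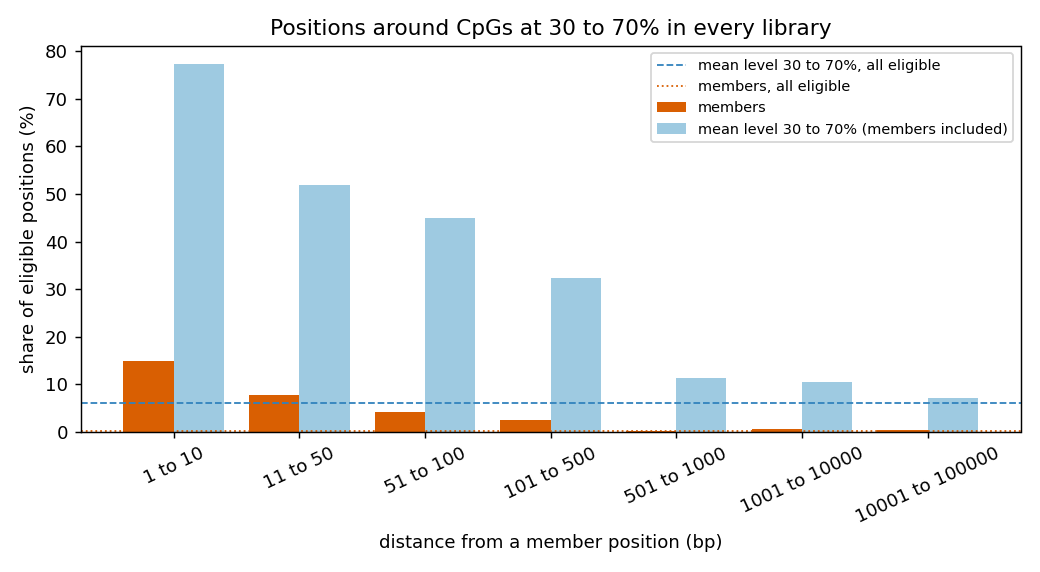
For bins of distance from a member (x axis, bp), the bars give the percentage of eligible positions that were members (orange) or had a mean level of 30 to 70% (blue); dashed and dotted lines give the same percentages over all eligible positions. The blue share fell from 77.3% at 1 to 10 bp to 11.3% at 501 to 1000 bp.

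The opposite strand, which is read from other fragments, was listed in all 12 libraries for 531 members. In 88 of these it was itself a member, so its level there was fixed by the rule. In the other 443 its mean was within 30 to 70% for 95.3%, with a median of 51.1% and a 10th to 90th percentile range of 39.3 to 64.6%. It was below 20% or above 80% for 15. Of 299 opposite strands that were eligible and not members, the median was inside the band in 10 of 12 libraries.

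The members differed from the eligible positions in where they lay, and in most respects resembled the 12202 non-members with a mean of 40 to 60%. Of the 1098 members outside chromosome 18, for which no start was in the RefSeq table, 15.4% lay within 1000 bp of a transcription start, against 50.98% of eligible positions and 11.4% of those non-members. Over 10000 bp from a start lay 61.0% of members, 32.02% of eligible positions and 59.9% of those non-members. Inside a gene span lay 60.8% of members, 77.5% of eligible positions and 67.9% of those non-members. CpGs were sparser around members, with a median of 4 other eligible positions within 100 bp, as for those non-members, against 13 for all eligible positions. Coverage was higher: the median over libraries was 132 reads for members, 108.5 for eligible positions and 84 for those non-members, and 3.24% of members were above the 99th percentile of eligible coverage, where 0.893% of those non-members were. More reads narrow the counting error of a level, and reads from repeated copies of a sequence can also add to coverage; the share of either in the choice of members was not tested.

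Among gene groups, the clustered protocadherins stood out by number. These genes on chromosome 18 encode neuronal cell-surface proteins, each started from its own promoter in a long array. They held 22 members of 708 eligible positions (3.11%, against 0.234% over all), and 15 of the 22 lay in the span of Pcdhga1 and of Pcdhga2, whose spans overlap. Positions with a mean of 40 to 60% were also common there: 115 of the 12202 non-members of that kind (0.942%) lay in these genes, compared with 0.145% of eligible positions. Genes of the other clustered families held 14 members of 7722 eligible positions (0.181%), and listed germline genes held 0 of 107. Of genes outside the regions, named after their values were seen, Ccdc177, Nfatc2, Runx1, Ptchd3 and Gm40847 held 4 members each.

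Of the 2 regions with the most members, 1 was at the start of Rbmxl2 (chr7:107209462-107209607), an intronless gene for an RNA-binding protein of male germ cells. It began 17 bp after the annotated start and held 8 members in 6 CpGs among 34 eligible positions, 82.4% of which had a mean of 30 to 70%. The mean over its members was 45.0, 53.9 and 49.8% in the young, 50.4, 57.8 and 48.5% in the NMDA, 47.5, 47.3 and 46.9% in the aged and 51.5, 45.5 and 49.6% in the RPC libraries. The groups overlapped, with all 12 libraries between 45.0 and 57.8%. In the printed stretch upstream, the level fell with distance from the region: the means on the forward strand were 46.2, 32.1 and 19.12% going upstream. The files list no RNA read for Rbmxl2 in any of the 10 RNA libraries.

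The second region with 8 members lay at Zrsr1 (chr11:22972581-22972993), which encodes a splicing factor related to U2AF, is expressed from the paternal copy and sits within Commd1, a gene for a copper-metabolism protein. All 53 of its eligible positions had a mean of 30 to 70%, and 8 in 7 CpGs were members. The mean over members was 36.5, 45.2 and 45.4% in the young, 49.2, 48.9 and 48.5% in the NMDA, 42.2, 37.5 and 40.5% in the aged and 53.5, 53.3 and 46.5% in the RPC libraries. The NMDA and RPC libraries lay above all young ones, by 6.50 and 8.75 points on average, while aged and young overlapped. The strands differed in spread. The member at 22972581 on the forward strand ranged from 38.4 to 52.05%, while the one at 22972993 on the reverse strand, whose CpG is the capital pair in the Commd1 stretch, ranged from 38.1% in young replicate 1 to 70% in aged replicate 1. In that stretch the 2 other reverse-strand positions were at 9.22 and 8.48% in young replicate 1 and so were not members, although their means were 44.5 and 45.3%.

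The other 9 regions were at genes with no imprinting in the list used. Exph5 (chr9:53340561-53340629), which encodes a partner of a secretory Rab protein, had 7 members of 9 eligible positions. Adgrd1, an adhesion G protein-coupled receptor gene 10233 bp from its region (chr5:129214832-129214870), had 6 of 7. LOC115490388 (chr6:3183069-3183550) had 6 of 14, with a median coverage of 504.5 reads, the highest of the 11 regions, where the others ranged from 113 to 276. Kank4, Wscd2, Tmem132b, Fbxo41, Spata31d1d and Pcdhga5 had 5 each. These were 5 of 7 for Kank4 (chr4:98778738-98779107), 5 of 9 for Wscd2 (chr5:113551208-113551278), 5 of 6 for Tmem132b, 3713 bp away (chr5:125528696-125528705), and 5 of 24 for Fbxo41 (chr6:85478213-85478622). For Spata31d1d, of a spermatogenesis gene family (chr13:59726236-59726691), 5 of 29 eligible positions were members, and for Pcdhga5 (chr18:37695026-37695235), 5 of 24. Except at Spata31d1d, Pcdhga5, Fbxo41, LOC115490388 and Rbmxl2, all eligible positions in the 11 regions had a mean of 30 to 70%. No exon annotation was used here, so positions are given by gene span only.

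Group means in the regions differed by at most 10.4 points from young cells. At Fbxo41, a gene for a neuronal F-box protein, the 3 NMDA libraries were at 57.4, 61.4 and 52.7% and the young at 40.7, 52.7 and 47.0%, so the groups did not overlap, though the nearest libraries were at 52.74 and 52.66%. At Adgrd1 the NMDA libraries were at 51.8, 56.7 and 61.5% and the young at 45.8, 48.8 and 46.4%, with no overlap. At Kank4, a gene for an actin-linked scaffold protein, the aged libraries were at 51.3, 55.0 and 48.5% against 41.4, 44.7 and 44.3% in the young, and the RPC libraries, at 47.6, 47.0 and 52.0%, were also above the young. At Tmem132b, a gene for a transmembrane protein of the nervous system, the RPC libraries were at 61.5, 61.3 and 56.5% and the young at 51.8, 48.0 and 54.1%. The remaining region means overlapped with young in every comparison, apart from Zrsr1 above. These regions were picked for small spread, so neither the differences nor the overlaps are tests.

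**Figure D3:**
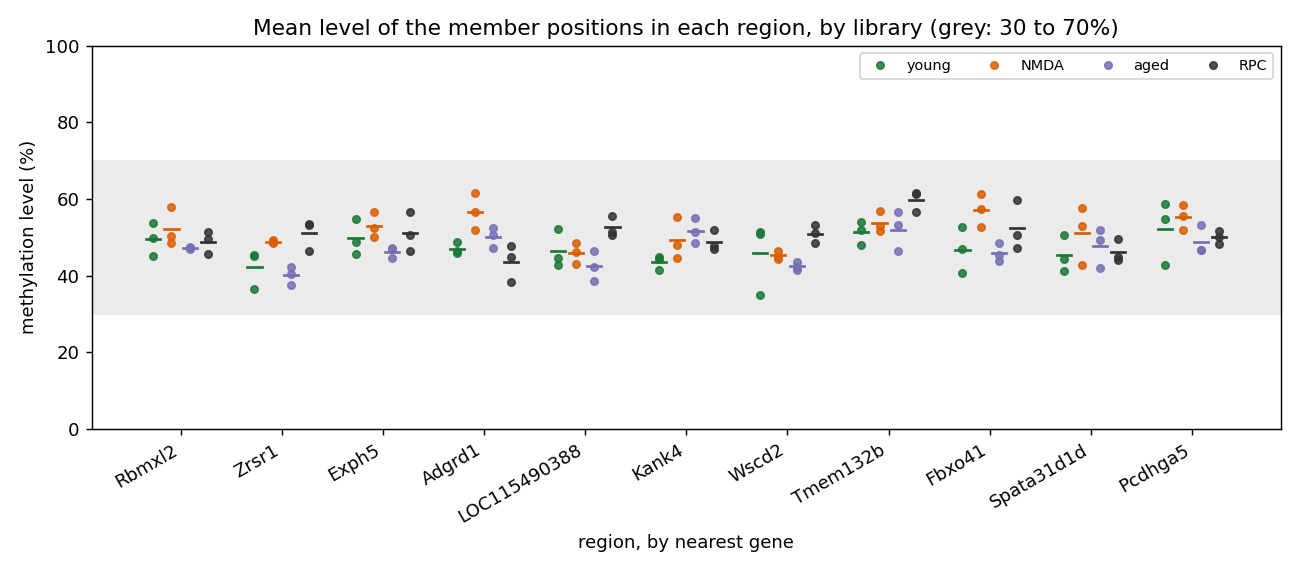
Points give the mean level of the member positions (y axis, %) of each of the 11 regions (x axis, by nearest gene) in each of the 12 libraries, coloured by group, with a line at the group mean; the grey band is 30 to 70%. All points lie between 35.05% (Wscd2, young replicate 1) and 61.5% (Adgrd1, NMDA replicate 3), as the rule requires of the positions averaged.

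Positions inside the regions that missed only the coverage minimum were not used by the rule. There were 19 of them, in 3 regions, and 13 had a mean of 30 to 70%, where 8.44% of all such autosomal positions did. They lie among members and can share reads with them, so they are not independent of the rule. Among eligible positions, 77.3% at 1 to 10 bp and 32.3% at 101 to 500 bp from a member had such a mean. Nothing is therefore read from the share of 13 in 19. The 5 at LOC115490388 averaged 32.9 ± 5.86% in young, 48.8 ± 5.79% in NMDA, 44.2 ± 10.5% in aged and 53.8 ± 0.80% in RPC cells (mean ± SD, n = 3). NMDA and RPC libraries did not overlap with young there (two-sided exact permutation p = 0.1 for each, the smallest that 3 libraries against 3 can give). The 6 at Kank4 averaged 37.9 ± 4.77% in young, 37.4 ± 7.20% in NMDA, 40.9 ± 10.8% in aged and 48.5 ± 7.89% in RPC cells, with each group overlapping with young. The 8 at Spata31d1d averaged 18.7 ± 0.50% in young, 26.9 ± 9.55% in NMDA, 31.4 ± 13.5% in aged and 37.4 ± 12.02% in RPC cells (n = 3). NMDA and aged libraries overlapped with young there, and RPC libraries did not (two-sided exact permutation p = 0.1). Of these 8 positions, 4 had a mean of 30 to 70%.

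Imprinted genes contributed few members. Of the 3895 eligible positions within 50000 bp of 1 of 75 listed imprinted genes, 13 were members (0.334%, against 0.234% of all eligible positions). Near these genes lay 1.14% of members, 0.797% of eligible positions and 1.64% of the 12202 non-members with a mean of 40 to 60% (200 positions). Apart from the 8 at Zrsr1 they were single positions near Blcap, H13, Park7, Smoc1 and Usp29. The windows reaching 1000 bp beyond both ends of each promoter were then examined, a step chosen after the levels had been seen. With at least 5 eligible positions there were 46 windows of 38 genes. The mean level was below 20% in 34, above 80% in 2 and between 20 and 80% in 10, and of those 10 only the overlapping windows of Zrsr1 and Commd1 held members.

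The other 8 averaged from 20.05 to 51.9% and had libraries outside the band. In 6 of these windows (Mest, Plagl1, Airn, Nnat and both of Gnas) the NMDA libraries lay above the young without overlap, by 20.4 to 35.3 points of the group means. The RPC libraries did so in 6 (Nap1l5, Plagl1, Airn, Nnat and both of Gnas), by 21.1 to 40.1 points, and the aged libraries in 1 of Gnas, by 12.5 points. A lack of overlap was also common in the 34 windows below 20%, mostly in the other direction. In most of them the NMDA libraries lay below the young without overlap, with differences from -3.23 (Park7) to -0.51 points (H13). At Snrpn (25.5 points) and Igf2r the NMDA libraries lay above the young without overlap. The aged and RPC libraries also lay below the young without overlap in most of the 34. At Snrpn and Slc38a4 the RPC libraries lay above the young without overlap, by 26.5 and 23.0 points. At Mest, a paternally expressed hydrolase gene, 30 positions averaged 0.49, 58.9 and 37.4% in the young, 69.3, 69.7 and 63.8% in the NMDA, 39.6, 51.2 and 21.9% in the aged and 52.9, 66.5 and 91.4% in the RPC libraries. Neighbouring positions moved together there, with a median SD across the 30 positions of 3.41 points within a library, so libraries differed as a whole, at a median coverage of 53 reads. At Nap1l5, a nucleosome assembly protein gene, young replicate 1 was at 7.23% and aged replicate 3 at 9.91%, and the other 10 libraries ranged from 31.2 to 57.8%. At Mcts2, whose 9 eligible positions are the capital CpGs in the printed stretch, young replicate 1 was at 20.1% and all other libraries were at 37.8 to 68.9%. At Nnat, a neuronal membrane protein gene, 7 libraries were inside the band, and young replicate 1 was lowest at 8.66%. Plagl1 had 6 libraries inside the band, Airn 5, and both windows of Gnas 4. Young replicate 1 was the lowest library in 8 of the 10 windows.

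**Figure D4:**
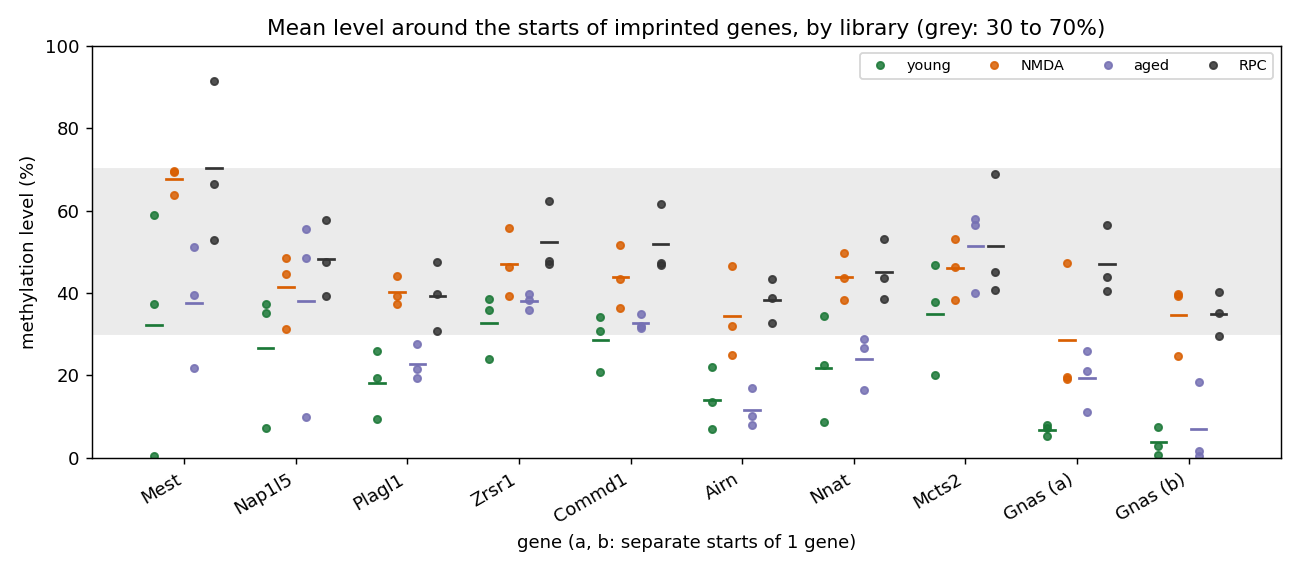
Points give the mean level (y axis, %) of the eligible positions around the starts of imprinted genes (x axis; windows with an overall mean of 20 to 80%) in each library, coloured by group, with a line at the group mean and a grey band at 30 to 70%. Points fall outside the band at every gene, for example 0.49% and 91.4% at Mest.

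Differences between groups were tested at all 718061 autosomal positions with usable counts, with a quasi-binomial model of methylated and unmethylated reads and Benjamini-Hochberg adjustment over all of them; a position was called at an adjusted p under 0.05 and a difference in pooled level of at least 10 points. Since a member cannot leave the band, the counts are given beside the background and nothing is read from them. For NMDA against young 39 members were called (3.41%), with 3.17% of all positions called; 29 were higher (2.08% of all positions) and 10 lower (1.09%). For aged against young 45 were called (3.94%), with 4.04% of all; 14 were higher (0.448%) and 31 lower (3.59%). For RPC against young 114 were called (9.97%), with 7.52% of all; 73 were higher (4.81%) and 41 lower (2.71%). Of the non-members with a mean of 40 to 60%, 17.6, 4.03 and 52.7% were called. The median difference of the members was 2.77, 0.28 and 2.13 points, and that of all tested positions was -1.25, -1.75 and -1.24 points. Called among the 65 members in regions were 0, 2 and 2.

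With a library of the NMDA, aged or RPC group left out, the count of that group fell together with the share of all positions called. Without NMDA replicate 1, 2 or 3 the NMDA count was 7, 4 or 10, with 0.979, 0.568 or 0.513% of all positions called. Without aged replicate 1, 2 or 3 the aged count was 15, 27 or 20, with 1.73, 2.58 or 1.95% of all. Without RPC replicate 1 the RPC count was 75, with 6.03% of all. The 3 comparisons share the young libraries, and leaving out 1 of these mostly raised the counts. Without young replicate 1, 2 or 3 the NMDA count was 46, 56 or 53, with 3.39, 4.23 or 4.85% of all positions called. The aged count was 38, 49 or 50 (4.12, 4.43 or 5.46%). For RPC it was 115, 120 or 117 (7.30, 7.91 or 8.39%).

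The single members named next are the 3 with the largest called difference each way per comparison, chosen after their values were seen. At a position inside Phactr1, a gene for an actin and phosphatase regulator (chr13, position 42954341), the level was 32.3, 37.8 and 40.8% in the young, 61.8, 62.0 and 66.7% in the NMDA, 46.9, 57.1 and 42.9% in the aged and 63.5, 67.6 and 63.8% in the RPC libraries. All libraries of the other 3 groups were above the young ones. In Pkhd1, which encodes a protein of primary cilia, the young libraries were at 69.0, 62.0 and 69.1%, above all others, which ranged from 31.5 to 48.7%. In Rgs22, a regulator of G protein signalling, the young libraries were at 66.0, 61.3 and 54.3%, again above all others (31.96 to 44.8%).

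Other members differed in 1 or 2 groups. The position 6543 bp from Runx2, a bone transcription factor, was at 40, 37.1 and 35.4% in young, 57.1, 53.6 and 49.4% in NMDA and 66.4, 69.6 and 60% in RPC libraries, while the aged libraries (34.0, 38.8 and 40.8%) overlapped with the young. In Iffo2, an intermediate filament family gene, the RPC libraries were at 69.6, 61.7 and 61.3% and the young at 32.5, 33.3 and 34.7%. In Col4a1, which encodes a basement membrane collagen, the RPC libraries were at 39.3, 30.4 and 40.9% and the young at 62.2, 59.8 and 62.0%. At a position 280852 bp from its nearest gene, Gm29924, the aged libraries were at 32.7, 32.4 and 31.9%, below the young at 53.7, 61.9 and 63.3%, and the NMDA libraries, at 50.7, 38.9 and 32.6%, were also below the young. The same member in Pkhd1 and the one in Rgs22 were thus high in young cells, and the one in Phactr1 low. The largest gain and loss among members were 30.2 and -26.6 points for RPC, 27.1 and -25.5 for NMDA, and 21.2 and -29.1 for aged against young cells. Gm33974, Gm36445, Zfp469, Chl1, Lmx1b, Fancc, Gm47125 and Smpd5 made up the rest of the named list.

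RNA was not used to choose the members, and it was examined for the 15 genes within 10000 bp of a region that passed the expression filter. By edgeR's quasi-likelihood test with adjustment over 18931 genes, 7 of the 15 were called for NMDA against young (46.7%), where 44.9% of all genes were called; 5 were higher (30.6% of all genes) and 2 lower (14.3%). For aged cells 3 were called (20%, against 27% of all genes), 3 higher (21.1%) and 0 lower (5.85%), and for RPC cells 12 (80%, against 60.8%), 4 higher (35.9%) and 8 lower (24.9%). Among the 15 were Pcdhga1, Pcdhga2, Pcdhga3, Pcdhga4, Pcdhga5, Pcdhgb1 and Pcdhgb2, which overlap at the Pcdhga5 region. All of these but Pcdhgb2 were called lower in RPC cells. The 15 genes are therefore not independent, and nothing is read from these shares. In CPM, the counts scaled to the library total, Zrsr1 was at 51.2 and 63.6 in the young, 20.9, 24.4 and 22.3 in the NMDA, 37.8 and 45.6 in the aged and 4.96, 5.96 and 5.77 in the RPC libraries. Zrsr1 RNA fell by 1.24 ± 0.16 (log2, SE; edgeR adjusted p = 0.00057) in NMDA cells. In RPC cells it fell by 3.496 ± 0.17 (edgeR adjusted p = 7.3e-07), and for aged cells the log2 difference was -0.27 (adjusted p = 0.33). Zrsr1 and Commd1 overlap, and with the strand setting of the counting not given their reads may not be separable. Commd1 itself was at 12.5 and 14.3 CPM in young and at 26.0, 26.4 and 26.0 CPM in RPC libraries.

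Tmem132b RNA was at 68.1 and 56.6 CPM in the young, 206, 69.8 and 196 in the NMDA, 378 and 425 in the aged and 4.82, 6.23 and 5.59 in the RPC libraries. It rose by 2.87 ± 0.44 (log2, SE; edgeR adjusted p = 0.0021) in aged cells and fell by 3.63 ± 0.42 (adjusted p = 1.0e-04) in RPC cells. In NMDA cells it rose by 1.44 ± 0.40 (adjusted p = 0.018), but with the 2 groups fitted alone the adjusted p was 0.097, with the replicate number as a block it was 0.060, and without NMDA replicate 1, NMDA replicate 3 or young replicate 2 it was 0.051, 0.050 and 0.0504. NMDA replicate 2, the lowest of its group for Tmem132b, also had the highest summed level of 7 microglia and macrophage markers, 2584 CPM against 214 and 509 in the other NMDA and 6.31 and 72.8 in the young libraries, with 6 of the 7 at 0 in young replicate 1; its part in the result was not tested.

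Fbxo41 had 0 reads in both young libraries. With 3 counts over the pooled young libraries as the floor, it was at least 14.7-fold higher in NMDA, 11.2-fold higher in aged and 56.4-fold higher in RPC cells (edgeR adjusted p = 0.00076, 0.0017 and 1.1e-04). Wscd2, a gene for a membrane protein with a sulfotransferase-like domain, had 1 read in the young libraries, and its pooled level was 116-fold higher in NMDA cells (95% exact interval 20.7 to 4613, counting error only). The aged ratio was 57.1 (10.1 to 2270) and the RPC ratio 314 (56.0 to 12412). In the fit with the 2 groups alone the aged calls of Fbxo41 and Wscd2 were lost (adjusted p = 0.073 and 0.15). In all, 113 genes had 0 reads in both young libraries and at least 10 CPM in every NMDA and aged library, and 77 of them were under 2 CPM in every RPC library. Gnas, a broadly expressed G protein gene, was among them, at 0 CPM in young, 395 to 533 CPM in NMDA and aged and 0.48 to 1.14 CPM in RPC libraries. Whether all libraries were counted with the same gene models was not tested.

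The gamma protocadherin genes at the chromosome 18 region share the exons at their 3′ end, so their reads cannot be assigned with certainty. Pcdhga2 was at 49.4 and 61.9 CPM in young and 10.6, 10.4 and 11.8 CPM in RPC libraries, a fall of 2.47 ± 0.23 (log2, SE; edgeR adjusted p = 2.5e-05). Pcdhgb1 fell by 2.36 ± 0.23 in RPC cells (adjusted p = 3.2e-05) and by 0.78 ± 0.22 in NMDA cells (adjusted p = 0.020). The NMDA call was lost with the 2 groups alone (adjusted p = 0.081), without young replicate 2 (0.090) and without NMDA replicate 1 or 2 (0.051 and 0.061). Kank4 was at 0 and 3.55 CPM in young and 11.3, 13.1 and 12.6 CPM in NMDA libraries (adjusted p = 0.086). Exph5 was at 4.47 and 0 CPM in young and at most 0.32 CPM in NMDA libraries (adjusted p = 0.080). Adgrd1 reached at most 0.44 CPM and Spata31d1d at most 0.44 CPM in any library, and LOC115490388 was not matched in the count table.

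Single libraries mattered for the counts of genes as well, near the regions and over all genes. The aged count of 3 (27% of all genes called) became 9 without young replicate 1 (40.7%) and 10 without young replicate 2 (51.6%). The NMDA count of 7 (44.9%) became 4 without NMDA replicate 1, 2 or 3 (39.6, 39.0 or 38.3%). The RNA libraries held from 10149390 to 36486072 counts. Summed levels of 10 Müller glia markers were 47912 to 56904 CPM in young, 15149 to 19051 in NMDA, 45904 to 46512 in aged and 2340 to 2371 in RPC libraries, and 8 progenitor markers summed to 6817 to 6950 CPM in RPC and 912 to 1531 in Müller libraries. Photoreceptor markers (6 genes) summed to 4701 to 11789 CPM in Müller and 4.37 to 7.51 in RPC libraries, vascular markers (5 genes) to 2391 to 3449 and 237 to 253, and lens and pigment markers (5 genes) to 659 in NMDA replicate 2 and at most 53.8 elsewhere. The vascular sum was almost all Kdr (2252 to 3295 CPM in Müller libraries) and Pdgfrb (107 to 469), while Cldn5, Pecam1 and Rgs5 were at 0 in both young libraries, and Cldn5 reached at most 1.20 and Pecam1 at most 11.2 CPM in any library. The Müller markers did not all differ in the same direction. Glul, the glutamine synthetase gene, was at 33663 and 26680 CPM in young and 4530, 2610 and 4586 in NMDA libraries. Vim, an intermediate filament gene, was higher after NMDA, at 769 and 533 CPM in young and 2475, 2316 and 1902 in NMDA libraries. Kcnj10, a potassium channel gene, was at 1051 and 1008 CPM in young and 943, 710 and 1061 in NMDA libraries. In these bulk samples fewer cells of a type and less RNA per cell cannot be told apart, and what other cells contributed to the methylation levels was not tested.

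**Figure D5:**
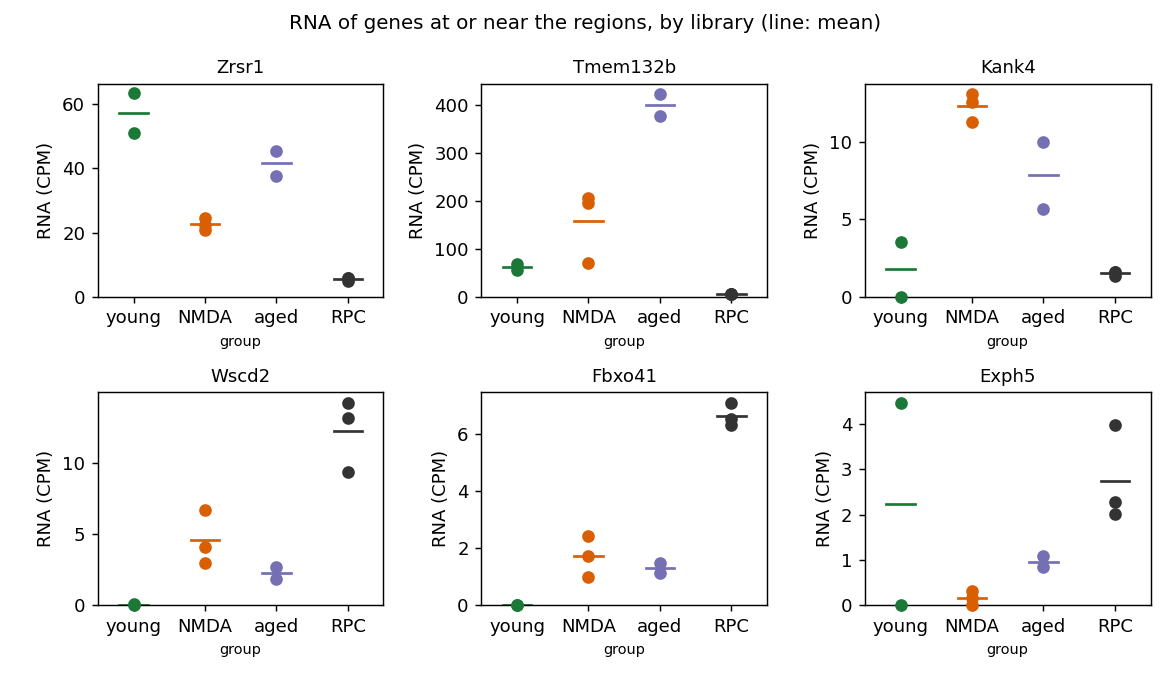
Points give the RNA level (y axis, CPM, linear from 0) of 6 genes at or near the regions in each library by group (x axis), with a line at the group mean. Zrsr1 ranges from 51.2 to 63.6 CPM in young to 4.96 to 5.96 in RPC libraries, while Tmem132b is highest in aged libraries at 378 and 425 CPM.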

How the data were processed

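Genomic DNA from 12 samples was profiled by RRBS and RNA from 10 by RNA-seq. Bismark 0.16.3, methylKit 1.4.0, HISAT2 2.0.4 and Trim Galore 0.4.3 are named in the submitters' processing notes, with the builds mm10 and GRCm38; which tool made which file is not stated there. The deposited RRBS tables give, per cytosine and strand, the read count (coverage, at least 10 in every row) and the percent of methylated reads computed by the authors. The deposited RNA table holds raw counts per gene symbol; the sources used here do not give its annotation or strand setting. All 118100 measured positions inside RefSeq promoter windows had C on the listed strand in GRCm38.

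Methylated reads were modelled per position with a quasi-binomial fit over 4 groups (8 residual degrees of freedom), whose dispersion was shrunk towards a value of 1.86 (weight 4.16 degrees of freedom) estimated over positions, in Python 3.11.15 with numpy 2.4.6 and scipy 1.17.1; 25747 constant positions were left out. RNA counts were tested with edgeR 4.0.16 (TMM scaling, expression filter, 6 residual degrees of freedom) in R 4.3.3, and DESeq2 1.42.0 was an alternative. Both fits were tested on simulated data. Same-numbered replicates did not deviate together (correlations from -0.018 to 0.042 for RRBS and -0.061 to 0.045 for RNA), so numbers were not taken to pair samples. Intervals and floors cover counting error only, since reads without molecular identifiers are not independent molecules. The members and gene lists were chosen with earlier results of these data known. Genes and regions were named by a rule: regions with the most members or near a listed imprinted gene, the largest differences without overlap, and the smallest adjusted p among nearby genes.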

Additional observations from a re-analysis of the deposited data

How the results depend on the processing

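The number of members and of regions followed the rule closely: 15 and 0 for a band of 40 to 60%, 3415 and 58 for 25 to 75%, and 0 regions when a region needed at least 10 positions. With 1 library left out there were 1206 to 1770 members and 11 to 22 regions, the highest without young replicate 1. Calls among members for NMDA, aged and RPC cells numbered 276, 197 and 367 in a plain logistic model, 11, 15 and 62 with the 2 groups alone, and 1, 1 and 12 at 25 points and an adjusted p under 0.01. They were 4 to 56, 15 to 50 and 75 to 120 with 1 library left out (0.513 to 4.85, 1.73 to 5.46 and 5.68 to 8.39% of all positions). With the replicate number as a block they were 81, 56 and 149 (5.05, 4.64 and 8.24% of all positions). Of these the NMDA count moved by more than 1.5 times. In all, 1 of 9 RRBS libraries and 4 of 6 RNA libraries correlated best with their own number. RNA libraries had only 2 young libraries to match, against 3 for RRBS. The 2 aged RNA libraries must also give the same result, since young and aged RNA had 2 libraries each. Nothing is therefore read from the RNA count. Calls among nearby genes were 14 and 25 for NMDA and RPC within 50000 bp, 3 and 1 for NMDA and aged with the 2 groups alone, and 4 to 10, 3 to 10 and 12 to 15 for NMDA, aged and RPC with 1 library left out. With the replicate block they were 5, 3 and 12. DESeq2 called 9, 3 and 12. Of the named genes' changes, none reversed in the settings run, and the call held in 126 combinations of gene and setting and was lost in 11, all for Tmem132b and Pcdhgb1 (NMDA) and Fbxo41 and Wscd2 (aged); the cause was not tested. The replicate block lost the Tmem132b NMDA call and no other of these. At 20 reads the counting error of a level is wide, so members near the limits of the band are the least certain.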
